A study of Mus musculus with 4 samples.

Results

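Migratory dendritic cells of the mouse draining lymph node were chosen from single-cell libraries by their UMIs (unique molecular identifiers, each standing for 1 captured RNA molecule). A cell had to hold 200 to 5000 genes, at most 20000 UMIs and under 10% mitochondrial UMIs, no UMI of Cd3d, Cd3e, Cd3g, Cd79a or Siglech, and at least 3 UMIs of Fscn1, Apol7c, Adam23 and Ccl22 together. This gate found 232 cells among 32725 filtered cells (34323 barcodes in all), and the members came from 4 libraries as 41 and 81 cells in control 1 and control 2 and 54 and 56 cells in EV 1 and EV 2. All mice were wildtype C57BL/6. The EV mice received 100 µg of extracellular vesicles from induced pluripotent stem cells (iPSC EVs) under the skin, and the control mice carried the label of no treatment, while the study's methods name a saline injection. The sample labels give a treatment duration of 24 hours, while the series design and the study's methods place the harvest on day 5. The age of the mice and the number of mice behind a library were not given in the sources used here.

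Migratory dendritic cells take up antigen in the skin and other tissues, mature, and travel through the lymph to the T cell zone, guided by the chemokine receptor Ccr7. On the way they switch on a shared program of cytoskeletal, chemokine and NF-kappaB genes, lose many marks of the subset they came from, and raise costimulatory and inhibitory surface proteins together. They present tissue antigens to T cells both for priming and for tolerance.

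The 4 genes of the gate chose the cells, so their values are a description. Fscn1, an actin-bundling protein of dendrites, had a UMI in 200 members, Apol7c, an apolipoprotein L family gene, in 159, Adam23, a cell adhesion protein, in 156, and Ccl22, a ligand of Ccr4, in 109. A total of 56 members held all 4 genes and 33 members held 1 of them alone. The median member had 17 UMIs of the gate genes, 24 members stood at the threshold of 3 UMIs, and 29 cells with 2 UMIs stood just outside it. Of the 24 cells at 3 UMIs, 7 had a UMI of Cacnb3, a calcium channel subunit of the migratory program, against 1 of the 29 cells at 2 UMIs. Ccr7 had a UMI in 4 of the 24 against 3 of the 29, Ccl5 in 13 against 19 and H2-Aa in 22 against 21. Levels per library are given as CPM, the members' summed UMIs of a gene scaled to a common library total with edgeR's TMM factors, in the order control 1, control 2, EV 1 and EV 2. Fscn1 stood at 1421 and 1207 CPM in the controls against 1446 and 1218 CPM in EV. Adam23 stood at 2381 and 1912 CPM in the controls against 1716 and 1852 CPM in EV, so both EV libraries lay under both controls. Apol7c stood at 1231 and 1755 CPM in the controls against 1638 and 1324 CPM in EV. Ccl22 stood at 621 and 554 CPM in the controls against 627 and 428 CPM in EV, and like Fscn1 and Apol7c it overlapped between groups.

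The label was compared with markers that the gate did not use. Cacnb3 had a UMI in 61.2% of members and 0.227% of Cd79a cells, the B cell class, and the suppressor of cytokine signalling Socs2 had one in 62.1% and 0.899%. Relb, the NF-kappaB subunit of mature dendritic cells, was found in 81.5% of members and 34.3% of B cells. Ccr7, which naive lymphocytes also use, was found in 50.9% and 31.7%. With each cell thinned to 2000 UMIs (179 members and 14009 B cells remained), these shares were 54.7% against 0.107% for Cacnb3, 52.0% against 0.400% for Socs2, 67.0% against 15.047% for Relb and 37.4% against 14.4% for Ccr7. The pan-dendritic genes Zbtb46, a transcription factor of conventional dendritic cells, and Flt3, the receptor for their growth factor, were found in 55.6% and 58.2% of members and in 0.807% and 5.16% of B cells. H2-Aa and Cd74, also on the pan-dendritic list, were found in 67.2% and 77.2% of members but in 99.6% and 99.9% of B cells. After thinning these shares were 49.7% and 61.5% against 99.5% and 99.9%. Ccl17, a chemokine of the migratory program, was found in 15.9% of members and 0.170% of B cells. Of the 232 members, 194 held at least 3 of the 8 further migratory markers Ccr7, Ccl17, Cacnb3, Nudt17, Tmem123, Marcksl1, Socs2 and Relb. The share of other cell classes that held as many is not given here. Of these markers, Ccr7 and Relb were also found in 31.7% and 34.3% of B cells.

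Markers of other cells were summed over each list, and their part in the results below was not tested. The 10 B cell markers other than Cd79a summed to 107 and 90.6 CPM in the controls against 88.5 and 87.999 CPM in EV, compared with 3817 to 7131 CPM in all other cells, and their most abundant gene was Ighm with 77 UMIs. The 12 T cell markers summed to 148 and 167 CPM in the controls against 148 and 129.9 CPM in EV, compared with 2776 to 4439 CPM in other cells, with Tcf7 the most abundant and Cd28 at 0. The B cell sum was lower in both EV libraries and the T cell sum overlapped. The 12 macrophage markers, led by Lyz2, summed to 229.6 and 375 CPM in the controls against 377 and 442 CPM in EV, compared with 77.4 to 271 CPM in other cells, and Mertk, Siglec1 and Vsig4 were at 0. Both EV libraries lay above both controls there, with control 2 and EV 1 close together. The 9 monocyte markers, also led by Lyz2, came to 411 and 486 CPM in the controls against 462 and 438 CPM in EV, with Chil3 at 0. The 9 markers of resident conventional dendritic cells, led by Sirpa, came to 193 and 389 CPM in the controls against 231 and 482 CPM in EV and overlapped. The 8 plasmacytoid markers summed to 763 and 437 CPM in the controls against 479 and 318 CPM in EV, led by Tcf4, with Klk1 and Cox6a2 at 0. In all other cells the monocyte markers came to 441 to 838 CPM and the plasmacytoid markers to 785 to 1178 CPM. The resident markers came to 108 to 157 CPM there, below the members of every library. Natural killer markers came to at most 39.9 CPM in any library (led by Klrk1, with Ncr1, Klra4, Gzma and Eomes at 0), and stromal and endothelial markers to at most 68.5 CPM (led by Pecam1, with Pdpn, Col1a1, Col3a1, Lyve1 and Cdh5 at 0). Plasma cell markers reached 139.8 CPM in EV 1 and at most 57.7 CPM in the other libraries, led by Prdm1, with Tnfrsf17 at 0. Neutrophil markers (led by Cxcr2, with S100a9, Retnlg, Mmp9 and Ly6g at 0) and red cell and platelet markers (led by Hba-a1, with Hba-a2 and Ppbp at 0) stayed at or under 6.18 CPM.

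The genes that led the members were low in most other classes. Ranked by the fold of pooled CPM in members over all other filtered cells (5 CPM added to both, genes with a UMI in at least 25% of members, gate genes left out), the 15 leading genes were Anxa3, H2-M2, Zfp366, Nav1, Slco5a1, Slc22a23, Fmnl2, Tmem150c, Mreg, Gm16685, Dscaml1, Il15, Tnfrsf11a, Cacnb3 and Rasal2. Anxa3, an annexin, stood at 860.2 CPM in members and 3.75 CPM in the rest, a fold of 98.9, which ran from 73.4 to 115 over the 4 libraries. Il15, a cytokine that sustains memory T and natural killer cells, stood at 603 CPM against 3.64 CPM, a fold of 70.4. Tnfrsf11a, the receptor RANK, stood at 494 CPM against 2.13 CPM. The exception was Fmnl2, a formin that nucleates actin filaments, which stood at 1167 CPM in members and at 969 CPM in cells with at least 3 UMIs of Siglech. Resident DC-like cells (27 cells that lack all gate genes and have at least 3 UMIs of Xcr1, Clec9a, Cd209a, Clec10a, Flt3 and Zbtb46) held 149 CPM of Zfp366, the dendritic transcription factor DC-SCRIPT, against 652 CPM in members, and 305 CPM of Nav1 against 843 CPM. Members were chosen on these cells' counts, so the folds carry no test.

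**Figure D1:**
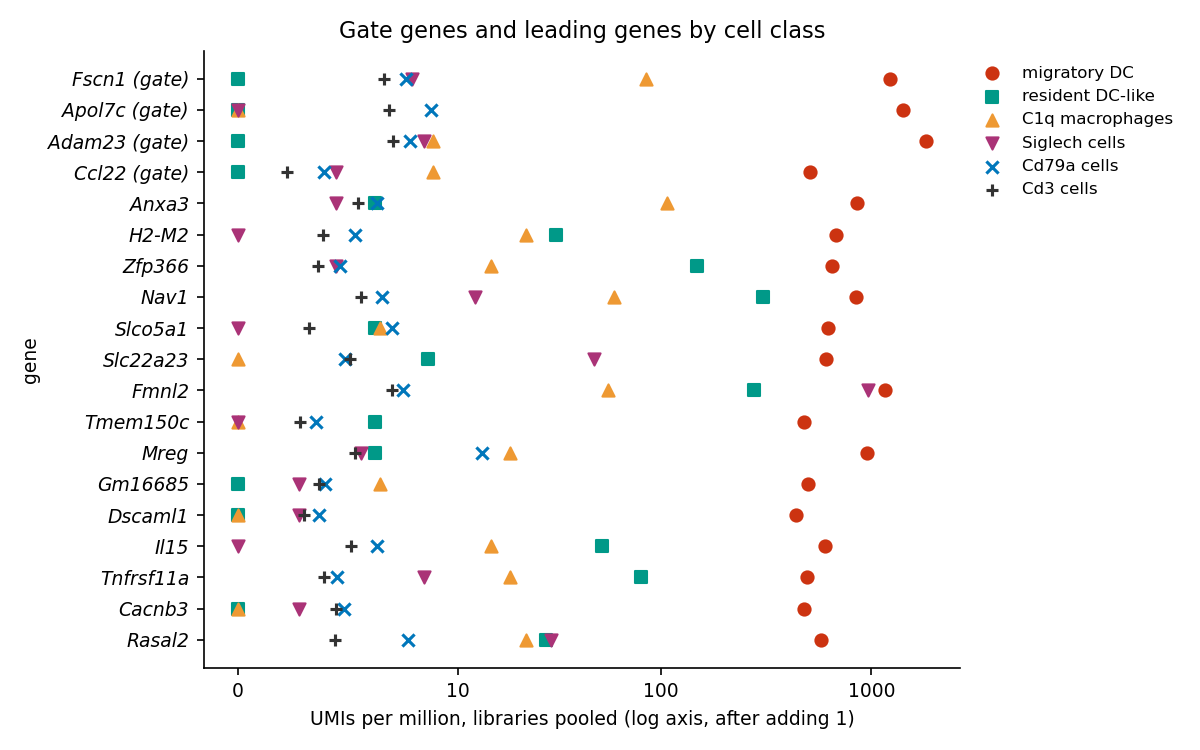
Pooled CPM (log axis after adding 1) of the 4 gate genes and the 15 leading genes in migratory dendritic cells, resident DC-like cells, C1q macrophages, Siglech cells, Cd79a cells and Cd3 cells. Migratory cells are rightmost in every row, and Fmnl2 in Siglech cells (969 CPM) is the nearest value of another class; resident DC-like cells hold no gate gene by definition.

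The members differed among themselves in the kind of RNA they held. Malat1, a nuclear long noncoding RNA, and the ribosomal protein genes, whose messages are cytoplasmic, split them into 3 groups by cuts chosen after seeing the data. A group of 74 cells held under 5% ribosomal protein UMIs, with medians of 0.633% ribosomal protein, 15.1% Malat1 and 4.02% mitochondrial UMIs at 5333 UMIs a cell. A second group of 82 cells held under 0.5% Malat1, with medians of 28.2% ribosomal protein and 0.213% mitochondrial UMIs at 1703 UMIs a cell, and 61 members had no Malat1 UMI at all. The other 76 cells held both kinds of RNA at a median of 12943 UMIs. Few cells lay near the cuts, with 7 at 4% to 6% ribosomal protein UMIs and 12 at 0.25% to 1% Malat1. Among all other filtered cells, 92.8% to 96.6% per library held both kinds.

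**Figure D2:**
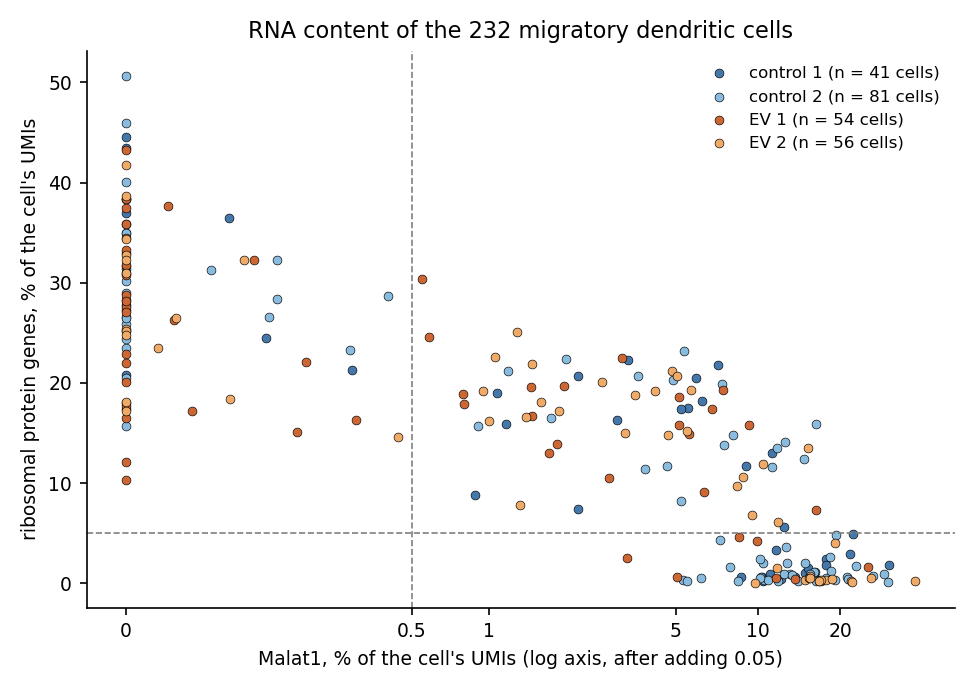
Each point is 1 of the 232 members, placed by Malat1 as a percentage of its UMIs (x, log axis after adding 0.05) and by ribosomal protein genes as a percentage of its UMIs (y), coloured by library; dashed lines mark 0.5% and 5%. The low ribosomal cells gather at the lower right and the 61 cells without Malat1 at the left edge, and each library has cells in all 3 groups.

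Levels of single genes differed between the RNA-content groups. Of the gate genes, which every member had to hold in some combination, Fscn1 had a UMI in 94.6%, 79.3% and 85.5% of low ribosomal, low Malat1 and both-kinds cells, while Adam23 had one in 97.3%, 17.1% and 92.1%. In the same order, pooled CPM of H2-Aa, an MHC class II chain, was 108, 6907 and 3319. The chemokine Ccl5 stood at 1090.2, 6543 and 8275 CPM. Cacnb3 stood at 878, 137 and 389.5 CPM and Socs2 at 665, 251 and 422 CPM. Relb ran the other way from H2-Aa, at 1315, 383 and 869 CPM, as did Il15 at 1219.7, 56.7 and 461 CPM. Median UMIs per cell differed between the groups, and these levels are per UMI.

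The mix of the groups differed between libraries. Low ribosomal cells made up 39.0% and 43.2% in the controls against 12.963% and 28.6% in EV of members, so both EV libraries lay below both controls (difference of means -20.35 percentage points, exact two-sided permutation p = 0.333, the smallest that 2 against 2 libraries allow). Low Malat1 cells made up 24.4% and 34.6% in the controls against 51.9% and 28.6% in EV, where the groups overlapped. Because summed UMIs mix these cells, a change in the sums and a change in the mix cannot be told apart in the sums alone. Values are therefore also given for the 76 cells with both kinds of RNA, which held 50.7% to 70.3% of the members' UMIs per library. Their marker make-up was not the same in every library. Cells that passed the gate through Adam23 alone were 0% and 11.1% in the controls against 15.8% and 20.8% in EV of them, higher in both EV libraries, and cells with at least 3 of the 8 further markers were 80% and 88.9% in the controls against 94.7% and 79.2% in EV, where the groups overlapped.

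The share of migratory dendritic cells among filtered cells overlapped between the groups. It was 0.504% (41 of 8141 cells, interval 0.362% to 0.683%) in control 1 and 1.03% (81 of 7891 cells, interval 0.816% to 1.27%) in control 2, with 95% Clopper-Pearson intervals that cover counting error only. In EV 1 it was 0.661% (54 of 8164 cells, interval 0.497% to 0.862%), and in EV 2 0.657% (56 of 8529 cells, interval 0.496% to 0.852%). The 2 controls lay on either side of the EV libraries, with means of 0.765% ± 0.370 (SD, n = 2) and 0.659% ± 0.0034 (SD, n = 2; exact two-sided permutation p = 1). Leaving out control 2 turned the difference from -0.11 to 0.16 percentage points. Cd79a cells made up 35.4% and 30.5% in the controls against 57.2% and 48.8% in EV of filtered cells, so the denominator also differed between groups. Among cells with no Cd3 and no Cd79a UMI, members were 17.5% and 20.1% in the controls against 14.5% and 18.3% in EV, again overlapping (exact permutation p = 0.667). Members with both kinds of RNA, as a share of filtered cells with both, were 0.191% and 0.245% in the controls against 0.252% and 0.294% in EV, where both EV libraries lay above both controls (exact permutation p = 0.333, the smallest possible).

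**Figure D3:**
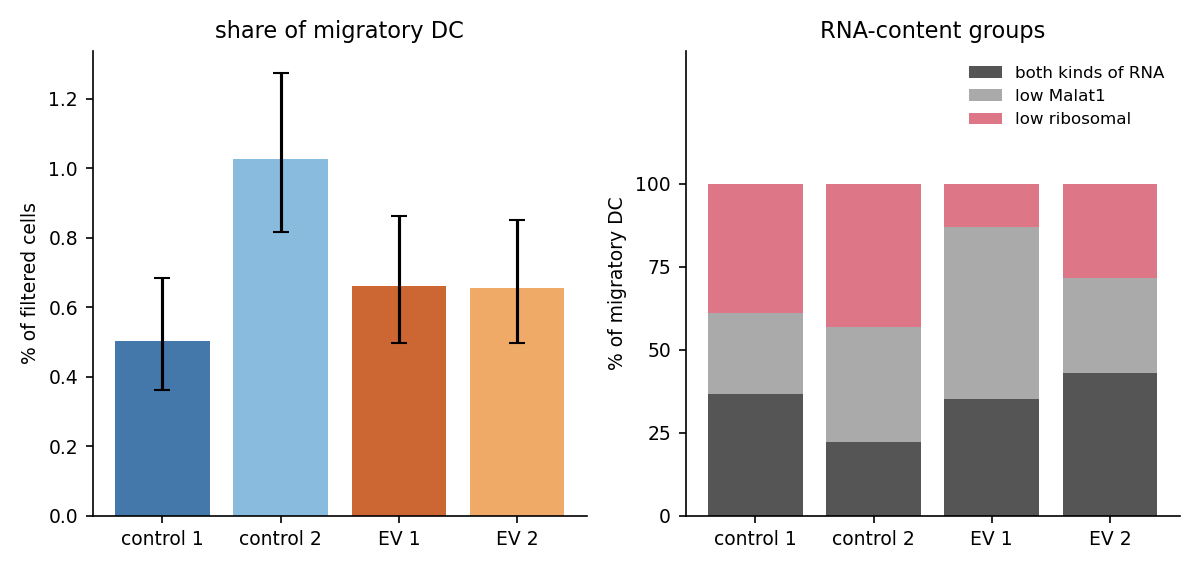
Left, migratory dendritic cells as a percentage of filtered cells in each library, with 95% Clopper-Pearson intervals; right, the percentage of members in each RNA-content group. Control 2 has the highest share and control 1 the lowest, and the low ribosomal segment is smaller in both EV libraries (12.963% and 28.6%) than in the controls (39.0% and 43.2%).

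Depth set the precision of what follows. The members' summed UMIs were 270079 and 485549 in the controls against 350476 and 477277 in EV, out of library totals of 50749656 and 58100433 in the controls against 68116085 and 70418672 in EV. Median UMIs per member were 5769 and 4407 in the controls against 4732 and 7346 in EV, and the groups overlapped (exact permutation p = 0.667). Median mitochondrial shares were 2.53% and 1.79% in the controls against 0.812% and 2.22% in EV and overlapped too (exact permutation p = 0.667). No member's barcode occurred in another library, although each pair of libraries shared 11 to 24 barcodes of filtered cells.

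The EV effect on the members was tested on UMIs summed per library, with edgeR's quasi-likelihood test over 5867 genes. The test called 5 genes (0.0852%) at a Benjamini-Hochberg adjusted p under 0.05. Ffar2, Ifitm3 and Ifi27l2a rose, and Bcl2 and Cd209d fell. An unadjusted p under 0.05 was reached by 473 genes (8.06%). In 19.2% of the tested genes both EV libraries lay above both controls, and in 19.4% both lay below. Among the 76 cells with both kinds of RNA, edgeR called 0 of 4162 genes (241 at an unadjusted p under 0.05), and DESeq2 also called 0. DESeq2 on all members gave an adjusted p for 3313 of 14755 genes and called 16, of which 3 (Ffar2, Ifitm3 and Ifi27l2a) were among the 5. The other 13 were Ccl5, Cd74, Il1b, Slc8a1, Tmcc3, Pid1, Clu, H2-Eb1, Stxbp6, Cdk8, Ifi30, Cd86 and H2-Aa. DESeq2 calls in the lists below are to be read beside 16 calls among 3313 genes. Leaving out 1 library at a time gave 8 calls without control 2, 31 without control 1, 115 without EV 1 and 297 without EV 2.

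Ifitm3, an interferon-induced membrane protein that restricts virus entry, stood at 50.5 and 30.6 CPM in the controls against 239 and 170.0 CPM in EV. The log2 change was 2.38 ± 0.39 (SE; edgeR adjusted p = 0.0456, and 3.0e-09 to 1.000 over 24 alternatives), with UMIs in 4, 7, 13 and 12 cells of the 4 libraries in the same order. Within cells holding both kinds of RNA the log2 change was 2.51 ± 0.61, again without overlap between groups. Ifi27l2a, another interferon-induced gene, stood at 27.2 and 39.3 CPM in the controls against 195 and 143 CPM in EV. Its log2 change was 2.28 ± 0.38 (edgeR adjusted p = 0.0460, and 2.8e-07 to 1.000 over the alternatives), carried by 3, 9, 20 and 15 cells. Both genes rose outside the members as well, with log2 changes of 3.07 for Ifitm3 (edgeR adjusted p = 0.0105) and 0.66 for Ifi27l2a (adjusted p = 0.0354) in all other filtered cells.

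Ffar2, a receptor for short-chain fatty acids, stood at 11.7 and 8.73 CPM in the controls against 164 and 75.1 CPM in EV. The log2 change was 3.53 ± 0.56 (edgeR adjusted p = 0.0456, and 2.7e-11 to 1.000 over 24 alternatives), from 2, 2, 7 and 9 cells. This rested on 3 and 4 UMIs in the controls against 53 and 34 UMIs in EV, and each EV library had more cells with a UMI than both controls together. Ffar2 rose outside the members as well, with a log2 change of 2.27 (edgeR adjusted p = 0.0185) in all other filtered cells. The difference between members and those cells, 1.38 ± 1.12, did not pass the edgeR interaction test.

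The genes that fell rested on few cells. Bcl2, which blocks apoptosis, stood at 124 and 65.5 CPM in the controls against 3.1026 and 2.21 CPM in EV, a log2 change of -4.98 ± 0.68 (edgeR adjusted p = 0.0249, and 8.8e-09 to 0.844 over 22 alternatives). It had 32 and 30 UMIs in the controls against 1 and 1 UMIs in EV, which came from 4, 5, 1 and 1 cells, and 1 cell held 39.1% of them. B cells held 313 CPM and all other cells together 450.4 CPM of Bcl2, more than the members' 40.4. Cd209d, a C-type lectin, stood at 206 and 82.9 CPM in the controls against 12.4 and 0 CPM in EV, a log2 change of -4.64 ± 0.76 (edgeR adjusted p = 0.0456, and 3.2e-13 to 1.000 over 18 alternatives). A single cell of control 1 held all 53 Cd209d UMIs of that library, or 55.8% of all of them, and 5 members had any. With 1 library left out the Cd209d log2 change was -3.89 without control 1, -5.18 without control 2, -8.74 without EV 1 and -3.42 without EV 2.

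**Figure D4:**
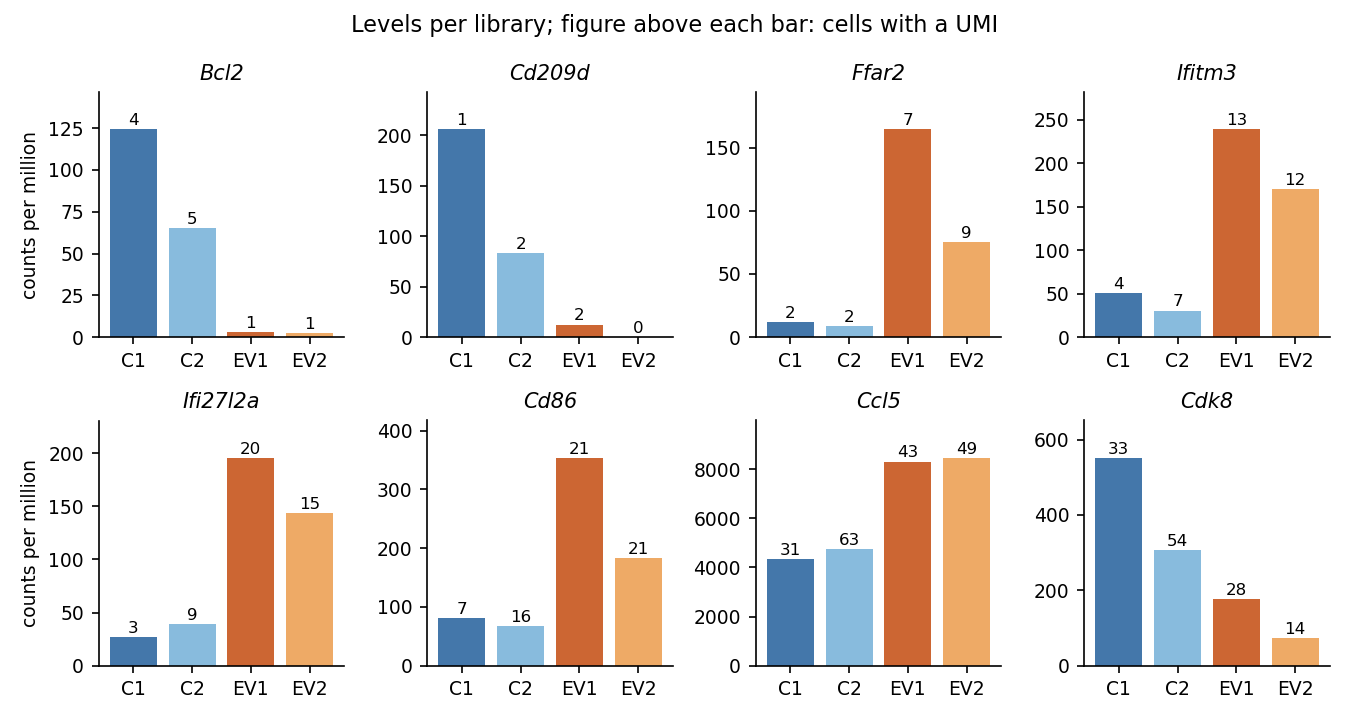
Summed CPM in the members of each library (C1 and C2, control; EV1 and EV2, EV) for the 5 called genes and for Cd86, Ccl5 and Cdk8, with the number of cells holding a UMI printed above each bar. The groups do not overlap in any panel, and Bcl2 and Cd209d come from at most 5 cells of a library.

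Ifi27l2a was the 1 called gene of the interferon list, which did not hold Ifitm3, beside 0.0852% of all tested genes called. Of the 40 genes listed, 38 matched a symbol and 18 passed the filter on low counts, of which 13 had a log2 change above 0, 8 lay higher without overlap and 3 lower, beside 19.2% and 19.4% of all tested genes. Their median log2 change was 0.39, beside 0.01 over all genes tested, and 0.18 among 13 genes in cells with both kinds of RNA. Isg15, a ubiquitin-like protein, stood at 15.5 and 26.2 CPM in the controls against 102 and 94.9 CPM in EV, a log2 change of 2.15 ± 0.42 that missed the threshold (edgeR adjusted p = 0.121, and 3.0e-05 to 1.000 over the alternatives), and 2 cells held all its UMIs in EV 2. The most abundant gene of the list was Epsti1, an interferon-induced gene found in 90.1% of members and 51.2% of B cells, at 5507 and 5625 CPM in the controls against 3559 and 4991 CPM in EV (log2 change -0.38 ± 0.24). In Cd79a cells 21 of 36 interferon genes were called higher and none lower, beside 1.07% of all genes called higher there, with a median log2 change of 0.77, on far more cells.

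The interferon-stimulated response element, to which STAT and IRF factors bind, was searched as GAAA, any 2 bases and GAAA on both strands of the RefSeq promoter windows (GRCm38.p6, 300 bases, 250 before and 50 after the start). It occurred in 3.44% of 32851 windows and in at least 1 window of 3.99% of 27025 genes. It did so for 18 of the 28 interferon genes with a window and 2 of 35 migratory program genes. It was present for Ifitm3 and Isg15, whose levels were higher in both EV libraries, and for the gate gene Apol7c, whose level overlapped between groups. These 3 windows are shown as examples of the same letters, with the matches in capitals (Ifitm3 chr7:141010695-141010994, Isg15 chr4:156200769-156201068, Apol7c chr15:77533266-77533565, all on the minus strand and written 5′ to 3′ along the gene). Apol7c helped to choose the members, so its level is a description and no contrast to Ifitm3 and Isg15. Overlapping matches run together, as in Isg15 with 3 matches, and in Apol7c both matches lie on the opposite strand of the window.
Ifitm3: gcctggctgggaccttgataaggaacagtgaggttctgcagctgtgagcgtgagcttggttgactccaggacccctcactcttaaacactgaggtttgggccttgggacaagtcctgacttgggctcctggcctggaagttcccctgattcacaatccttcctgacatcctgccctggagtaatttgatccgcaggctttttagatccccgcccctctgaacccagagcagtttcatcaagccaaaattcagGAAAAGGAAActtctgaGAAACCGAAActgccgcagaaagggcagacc
Isg15: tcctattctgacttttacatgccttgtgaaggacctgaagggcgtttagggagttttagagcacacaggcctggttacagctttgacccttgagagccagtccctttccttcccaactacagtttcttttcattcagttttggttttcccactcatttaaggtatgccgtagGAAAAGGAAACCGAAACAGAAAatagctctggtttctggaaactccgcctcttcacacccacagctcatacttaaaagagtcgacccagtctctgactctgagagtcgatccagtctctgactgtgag
Apol7c: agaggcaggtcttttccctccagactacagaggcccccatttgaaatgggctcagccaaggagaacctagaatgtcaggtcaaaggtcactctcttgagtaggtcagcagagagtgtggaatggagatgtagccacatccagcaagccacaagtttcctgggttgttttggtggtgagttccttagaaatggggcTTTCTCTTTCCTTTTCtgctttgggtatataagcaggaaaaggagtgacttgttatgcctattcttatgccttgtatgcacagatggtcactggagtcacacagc

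For NF-kappaB, the letters GGGAA, any 3 bases and CC on both strands occurred in 5.78% of windows and for 6.59% of genes, in 8 of 19 genes of the NF-kappaB list and in 3 of 35 migratory program genes. A match is a description of letters and not of binding. Also searched were GGAA, any 2 bases and GAAA, in 2.72% of windows, and GGGA, any 4 bases and CC, in 20.7%, which takes in every match of the narrower NF-kappaB string.

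No gene of the maturation program was called in EV against control by edgeR. Of 45 program genes outside the gate, 44 passed the filter, and DESeq2 called Ccl5. At an unadjusted p under 0.05, 7 lay higher and 2 lower, and the groups did not overlap for 9 higher and 12 lower, beside the background shares given above. The median log2 change was -0.12, and -0.13 in cells with both kinds of RNA. Ccr7 stood at 435 and 434 CPM in the controls against 627 and 305 CPM in EV (log2 change 0.09 ± 0.33), with the EV libraries on either side of the controls. Relb stood at 1029 and 1052 CPM in the controls against 825 and 978 CPM in EV, both EV libraries under both controls. Its fitted log2 change (-0.21 ± 0.26) was smaller than its standard error. Il4i1, a secreted amino acid oxidase, overlapped at 548 and 410.3 CPM in the controls against 462 and 422 CPM in EV (log2 change -0.11 ± 0.28). Fabp5, a fatty acid binding protein, was higher in both EV libraries, at 664 and 319 CPM in the controls against 1827 and 1009 CPM in EV (log2 change 1.54 ± 0.37, edgeR adjusted p = 0.193, and 1.3e-13 to 0.977 over the alternatives). Cst3, the protease inhibitor cystatin C, stood at 1957 and 2674 CPM in the controls against 4219 and 3245 CPM in EV (log2 change 0.69 ± 0.26), but at 0.05 ± 0.21 with overlapping groups in cells with both kinds of RNA.

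Among pan-dendritic genes, 12 of 13 were tested and edgeR called none, while DESeq2 called H2-Aa and Cd74. The groups did not overlap for 8 higher and 0 lower, beside 19.2% and 19.4% of all tested genes, and the median log2 change was 0.55. Zbtb46 stood at 326 and 309.9 CPM in the controls against 298 and 339.9 CPM in EV and Flt3 at 435 and 533 CPM in the controls against 580.2 and 509.9 CPM in EV, both overlapping. The integrin Itgax, known as CD11c, stood at 11.7 and 37.1 CPM in the controls against 62.1 and 72.8 CPM in EV (log2 change 1.33 ± 0.48, edgeR adjusted p = 0.425).

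Among costimulatory genes, Cd86 had the largest log2 change of those tested. Of 18 genes, 12 were tested and edgeR called none (2 higher and 1 lower at an unadjusted p under 0.05, beside 8.06% of all tested genes), while DESeq2 called Cd86, and their median log2 change was 0.20. Cd86, a ligand of CD28 and CTLA-4, stood at 81.6 and 67.7 CPM in the controls against 354 and 183 CPM in EV. The log2 change was 1.85 ± 0.38 (edgeR adjusted p = 0.121, and 3.0e-09 to 1.000 over the alternatives), from 7, 16, 21 and 21 cells, and both EV libraries lay above both controls. Cd86 had a UMI in 28.0% of members and 40.1% of B cells, or 24.0% and 21.3% with cells thinned to 2000 UMIs. Cd80, which binds the same receptors, was found in 18.1% of members and 0.829% of B cells, at 46.6 and 61.1 CPM in the controls against 133 and 66.2 CPM in EV (log2 change 0.83 ± 0.42). Cd40, the receptor for CD40L, stood at 268 and 229 CPM in the controls against 354 and 322 CPM in EV (log2 change 0.45 ± 0.28), and Cd83, a maturation marker, at 318 and 349 CPM in the controls against 413 and 355 CPM in EV (log2 change 0.20 ± 0.28). Cd83 was found in fewer members than B cells, 53.0% against 74.4%, or 39.7% against 51.9% after thinning. The most abundant gene of the list was Slamf7, a homophilic receptor, at 369 and 430.0 CPM in the controls against 269.9 and 433 CPM in EV with overlapping groups. Slamf1, also homophilic, stood lower at 89.3 and 146 CPM in the controls against 52.7 and 28.7 CPM in EV (log2 change -1.597 ± 0.42, edgeR adjusted p = 0.206).

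Tolerogenic and inhibitory genes were led in UMIs by Socs2, Il4i1 and Cd83. Of 40 genes, 25 were tested and edgeR and DESeq2 each called none, while 7 lay higher and 0 lower at an unadjusted p under 0.05, which 8.06% of all tested genes reached. The groups did not overlap for 9 higher and 2 lower, beside 19.2% and 19.4% of all genes, and the median log2 change was 0.40, or 0.26 over 20 genes in cells with both kinds of RNA. Socs2 stood at 672 and 482 CPM in the controls against 481 and 402 CPM in EV, with both EV libraries below both controls (log2 change -0.38 ± 0.29). Cd274, which encodes PD-L1, stood at 139.8 and 234 CPM in the controls against 273 and 170.0 CPM in EV (log2 change 0.21 ± 0.34), and was found in 29.3% of members and 24.2% of B cells. The death receptor Fas was found in 35.3% of members and 3.61% of B cells, and stood at 105 and 146 CPM in the controls against 189 and 150.1 CPM in EV (log2 change 0.40 ± 0.32).

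Cd200, the ligand of an inhibitory myeloid receptor, stood at 50.5 and 34.9 CPM in the controls against 96.2 and 77.3 CPM in EV (log2 change 1.05 ± 0.39, edgeR adjusted p = 0.451). It had a UMI in 20.3% of members and 27.0% of B cells, and Pdcd1lg2, which encodes PD-L2, in 8.62% and 18.7%. After thinning these were 7.26% and 12.4% for Cd200 and 6.15% and 8.26% for Pdcd1lg2. Tgfb1 stood at 38.8 and 24.0 CPM in the controls against 62.1 and 57.4 CPM in EV (log2 change 0.98 ± 0.44, edgeR adjusted p = 0.604). The other 5 at an unadjusted p under 0.05 were Stat3, Havcr2, Itgav, Entpd1 and Nr4a3. Itgb8, the integrin chain that activates latent TGF-beta, overlapped at 144 and 93.9 CPM in the controls against 65.2 and 141 CPM in EV and was found in 14.7% of members against 0.0283% of B cells. The retinoic acid enzyme Aldh1a2 had 0 and 7 UMIs in the controls against 1 and 13 UMIs in EV from 9 members, and Ido1, the tryptophan-degrading enzyme, had 2 UMIs in all. Neither was tested, and Aldh1a1, Vsig4 and Nt5e had no UMI in 1583381 member UMIs, which allows up to 1.89 CPM (3 counts).

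Ccl5 dominated the secreted factors. The chemokine, which draws T cells, had a UMI in 80.2% of members and 1.97% of B cells and stood at 4342 and 4738 CPM in the controls against 8306 and 8456 CPM in EV. The log2 change was 0.88 ± 0.22 (edgeR adjusted p = 0.205, and 1.2e-04 to 1.000 over the alternatives), and 0.63 ± 0.13 in cells with both kinds of RNA, where the libraries stood at 6263 and 7785 CPM in the controls against 11094 and 10671 CPM in EV. DESeq2 called it and Il1b, and edgeR called neither in its main form but called Il1b with the replicate number as a block (log2 change 3.91, adjusted p = 0.0309, and 5.8e-20 to 1.000 over the alternatives). Il1b, an inflammatory cytokine, stood at 11.7 and 4.37 CPM in the controls against 248 and 37.5 CPM in EV from 1, 1, 10 and 5 cells, and 80 of its 102 UMIs were in EV 1, without which its log2 change was 2.34 in place of 4.22. In all other filtered cells its log2 change was 4.92 (edgeR adjusted p = 0.0354). Il15 stood at 551 and 801 CPM in the controls against 431 and 678 CPM in EV and overlapped. Ccl17, the second ligand of Ccr4, stood at 85.4 and 80.8 CPM in the controls against 127 and 30.9 CPM in EV, and Cxcl16 at 443 and 437 CPM in the controls against 537 and 388 CPM in EV, both overlapping. Il12b, a subunit of interleukin 12, had 3 and 8 UMIs in the controls against 5 and 12 UMIs in EV from 16 cells. Of 25 genes on the list, 9 were tested, 4 lay higher and none lower at an unadjusted p under 0.05, beside 8.06% of all tested genes, and the median log2 change was 0.53.

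MHC class II presentation genes lay higher in EV for most of the list, although edgeR called none. Of 17 genes, 16 were tested, and 14 had a log2 change above 0, with a median of 0.66. Both EV libraries lay above both controls for 10 and below for none, beside 19.2% and 19.4% of all tested genes. At an unadjusted p under 0.05, 9 lay higher and none lower, beside 8.06% of all tested genes. DESeq2 called H2-Aa, H2-Eb1, Cd74 and Ifi30, beside 16 calls among the 3313 genes to which it gave an adjusted p. Cd74, the invariant chain, stood at 5561 and 4758 CPM in the controls against 8923 and 10108 CPM in EV (log2 change 0.88 ± 0.23, edgeR adjusted p = 0.206, and 1.3e-12 to 1.000 over the alternatives). H2-Aa stood at 2388 and 2207 CPM in the controls against 3614 and 4214 CPM in EV (log2 change 0.77 ± 0.24, edgeR adjusted p = 0.318, and 2.1e-05 to 1.000 over the alternatives). Ciita, the master activator of class II transcription, stood at 132 and 74.2 CPM in the controls against 183 and 305 CPM in EV (log2 change 1.30 ± 0.37, edgeR adjusted p = 0.232).

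Low ribosomal cells held little H2-Aa and were a smaller share of both EV libraries, so the class II genes were also read in cells with both kinds of RNA. There the median log2 change was 0.69 over 14 genes, with 10 higher and 1 lower without overlap, beside 17.5% and 17.1% of the 4162 genes tested in those cells. H2-Aa stood there at 3292 and 1859.8 CPM in the controls against 3550.0 and 5399 CPM in EV, a log2 change of 0.80 ± 0.29 with control 1 close to EV 1. With 1 library left out it was 1.28 without control 1, 0.46 without control 2, 1.10 without EV 1 and 0.48 without EV 2. When the low ribosomal cells alone were left out of the members, the log2 change fell from 0.77 to 0.46 for H2-Aa (edgeR adjusted p = 0.776) and from 0.88 to 0.57 for Cd74 (adjusted p = 0.463). When the low Malat1 cells alone were left out it was 1.11 for H2-Aa (adjusted p = 0.271) and 1.16 for Cd74 (adjusted p = 0.243), and in members with at least 3 of 8 further markers 1.21 and 1.29. H2-M2, placed on the list but a nonclassical class I gene, overlapped at 753 and 805 CPM in the controls against 794 and 569.5 CPM in EV. In Cd79a cells the same list had a median log2 change of 0.14, and the difference between the members' and the B cells' EV effect was tested by an interaction term with library as a block (edgeR, 81 of 12969 genes or 0.625% called). That difference was called for 4 of 17 class II genes, all higher in members, and it was 0.93 ± 0.19 for H2-Ab1 (adjusted p = 7.4e-04), 0.93 ± 0.18 for H2-Eb1 (adjusted p = 4.3e-04), 0.72 ± 0.17 for H2-Aa (adjusted p = 0.0120) and 0.60 ± 0.14 for Cd74 (adjusted p = 0.0114). Against Cd3 cells H2-Aa gave a difference of 0.43 ± 0.22 (adjusted p = 0.912). In all other filtered cells together, whose share of Cd79a cells was higher in EV, 12 of 17 class II genes were called higher, beside 5.69% of all genes, and the difference for H2-Aa was 0.00 ± 0.22 (adjusted p = 1).

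**Figure D5:**
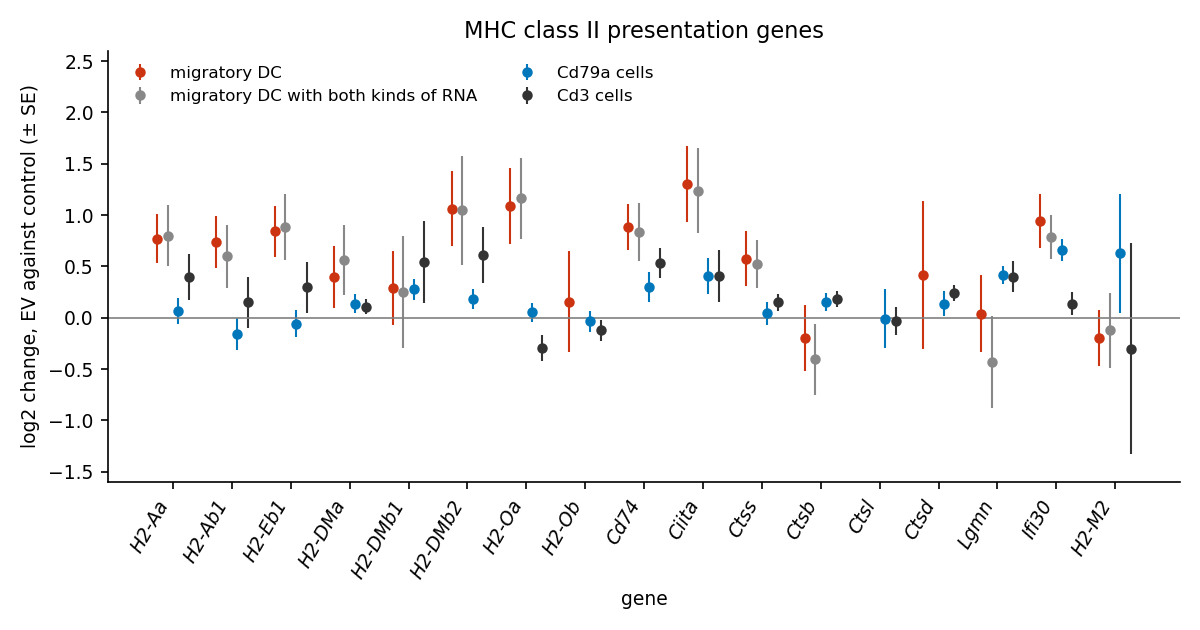
Log2 change of EV against control (± SE derived from edgeR's F statistic) for the class II presentation genes in migratory dendritic cells, in those with both kinds of RNA, in Cd79a cells and in Cd3 cells. In migratory dendritic cells 14 of 16 points lie above 0, as Cd74 at 0.88, while the points of Cd79a cells have a median of 0.14.

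Marks of dendritic cell subsets were sparse. The cDC1 chemokine receptor Xcr1 was found in 7 members and Clec9a, a cDC1 receptor for dead cells, in 9, while Batf3, a cDC1 factor kept on maturation, stood at 190.3 and 292 CPM in the controls against 233 and 185 CPM in EV and Irf8 at 105 and 172 CPM in the controls against 143 and 139 CPM in EV, both overlapping. Of the cDC2 marks, Cd209a was found in 8 members, Mgl2 in 3, and Sirpa stood at 31.1 and 93.9 CPM in the controls against 115 and 168 CPM in EV (log2 change 1.09 ± 0.43, edgeR adjusted p = 0.488). Irf4 overlapped at 73.8 and 45.8 CPM in the controls against 68.3 and 41.9 CPM in EV. S100a4, a calcium-binding protein and the most abundant gene of the cDC2 list, stood at 2066 and 1270.3 CPM in the controls against 2451 and 1501 CPM in EV. Of Langerhans cell genes, Cd207, the lectin langerin, was found in 11 members and the adhesion protein Epcam in 8.62% of members against 3.17% of B cells. The cDC1 list had 5 tested genes of 17 and none called by either tool. The cDC2 list had 9 of 18 with Ffar2 called by both, and the Langerhans list 6 of 13 with none called by either. These calls stand beside 0.0852% of all tested genes called by edgeR. The median log2 changes of the lists were -0.01, -0.10 and 0.21, and -0.34, -0.15 and -0.09 in cells with both kinds of RNA. At an unadjusted p under 0.05, 1 cDC1 gene, 3 cDC2 genes and 0 Langerhans genes lay higher and none lower, beside 8.06% of all tested genes.

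Heat shock genes had a higher and cold-inducible and rRNA-like transcripts a lower median in EV, in members and in the lymphocyte classes alike in direction. Of 23 heat shock chaperones, 14 were tested, edgeR and DESeq2 called none, 7 lay higher at an unadjusted p under 0.05, beside 8.06% of all tested genes, and the groups did not overlap for 8 higher and 0 lower, beside 19.2% and 19.4%. The median log2 change was 0.67 in members, 0.61 in Cd79a cells and 0.67 in Cd3 cells. Hspa8, the constitutive HSP70, stood at 769 and 569.7 CPM in the controls against 1387 and 1093 CPM in EV (log2 change 0.89 ± 0.28, edgeR adjusted p = 0.318). The 8 cold-inducible and rRNA-like transcripts all had log2 changes below 0, with a median of -1.05 in members and -1.30 in Cd79a cells, and 5 of them reached an unadjusted p under 0.05, beside the same 8.06%. The groups did not overlap for 6 lower and 0 higher. EdgeR called none of the 8 in members, and DESeq2 called Cdk8. The list's name covers its members only in part, since Rbm3 and Cirbp are the cold-inducible genes and Gm42418 and AY036118 the rRNA-like ones. Cmss1, Cdk8, Lars2 and Camk1d were listed with them with earlier results of these data known. The heat shock list was also made with earlier results of these data known. The direction, median and counts of both lists are therefore a description and not a test. Gm42418, which overlaps ribosomal RNA, stood at 16031 and 13224 CPM in the controls against 9829 and 3529.6 CPM in EV (log2 change -1.13 ± 0.36, edgeR adjusted p = 0.318). Rbm3, a cold-inducible RNA-binding protein, overlapped at 539.8 and 421 CPM in the controls against 583 and 353 CPM in EV (log2 change -0.04 ± 0.31), and Cirbp, of the same kind, stood at 85.4 and 61.1 CPM in the controls against 37.2 and 44.1 CPM in EV (log2 change -0.80 ± 0.40).

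Cdk8, a kinase of the Mediator complex, stood at 551 and 308 CPM in the controls against 177 and 72.8 CPM in EV, a log2 change of -1.80 ± 0.41 that edgeR did not call (adjusted p = 0.168, and 2.2e-10 to 1.000 over the alternatives) and DESeq2 did. With 1 library left out the log2 change was -1.32 without control 1, -2.16 without control 2, -2.51 without EV 1 and -1.24 without EV 2. Cdk8 changed by -1.78 in all other filtered cells, and the difference of 0.13 ± 0.29 did not pass (edgeR interaction, adjusted p = 1). Its paralog Cdk19 overlapped at 183 and 218 CPM in the controls against 152 and 199 CPM in EV. Of the 7 genes of the kinase module, 6 were tested and edgeR called none, with 1 lower at an unadjusted p under 0.05, beside 8.06% of all tested genes, and a median log2 change of -0.17. The part of these transcripts and of the chaperones in the other results was not tested.

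Of the remaining lists, those of survival genes and of uptake receptors held 1 edgeR call each, beside 0.0852% of all tested genes called. The counts at an unadjusted p under 0.05 are to be read beside the 8.06% of all tested genes. NF-kappaB subunits and feedback genes, led by Tank, had 21 tested genes, none called by edgeR or DESeq2 (3 higher at an unadjusted p under 0.05), and a median log2 change of -0.02. Class I presentation genes, led by B2m at 2466 and 2619 CPM in the controls against 3295 and 2728 CPM in EV, had 22 tested, none called by either tool (1 higher at an unadjusted p under 0.05) and a median of 0.26. Their groups did not overlap for 9 higher and 1 lower, beside 19.2% and 19.4% of all tested genes. Migration and cytoskeleton genes, led by Actb, had 25 tested, none called by either (1 higher and 1 lower at an unadjusted p under 0.05), and a median of 0.04. Survival and death genes, led by the Bcl2 relative Bcl2a1b at 497 and 572 CPM in the controls against 894 and 605 CPM in EV, had 14 tested, Bcl2 called lower by edgeR and none by DESeq2, and a median of 0.44. In cells with both kinds of RNA the medians of these lists were, in the same order, 0.09, 0.01, -0.07 and 0.18.

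Pattern recognition and uptake receptors, led by the endocytic receptor Ly75 at 217 and 288 CPM in the controls against 351 and 249 CPM in EV, had 8 tested, Cd209d called lower by edgeR and none by DESeq2, and a median of -0.15. Cholesterol genes, led by the lysosomal transporter Npc2, had 12 tested, none called by either tool (2 higher and 1 lower at an unadjusted p under 0.05), and a median of -0.18. Immediate early genes (11 tested, led by Junb), glycolysis genes (12 tested, led by Gapdh) and cell cycle genes (4 tested, led by Tubb5) had none called by either tool and 0 at an unadjusted p under 0.05, with medians of 0.25, 0.34 and -0.22. In cells with both kinds of RNA these medians were -0.13 over 11 genes, -0.02 over 7 and -0.40 over 2. The uptake receptor and cholesterol medians were -0.12 and -0.34 there.

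The EV effect in members was finally set against that in all other filtered cells by the interaction of class and treatment with library as a block. EdgeR called 79 of 15122 genes (0.522%), 33 with a higher and 46 with a lower change in members. Samsn1, an adaptor protein of the program, had a log2 change of -0.25 ± 0.25 in members and 1.54 elsewhere, a difference of -1.71 ± 0.24 (adjusted p = 3.3e-09). Cd83 had 0.20 ± 0.28 in members and 1.92 elsewhere, a difference of -1.67 ± 0.27 (adjusted p = 2.5e-06). Ccl5 had a difference of 0.91 ± 0.21 (adjusted p = 0.0065) and Ifi27l2a one of 1.73 ± 0.36 (adjusted p = 9.8e-04), both higher in members. The share of Cd79a cells among the other cells was higher in EV, and within Cd79a cells Cd83 changed by 1.20 and Samsn1 by 1.44. Against the Cd79a cells alone Ccl5 gave a difference of -0.20 ± 0.19, which did not pass (adjusted p = 0.943). Against the 27 resident DC-like cells (5 and 3 in the controls, 8 and 11 in EV) 6 of 5162 genes (0.116%) were called, among them Bcl2 (-6.38 ± 1.26) and Ccl5 (5.75 ± 0.98), on 13562 resident UMIs in control 2.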

How the data were processed

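Each of the 4 libraries (2 control, 2 EV) was deposited as a matrix of raw UMI counts over 32285 genes, made by the authors with the 10x 3′ V3.1 kit and, per the submitters' processing notes, Cell Ranger 7.1.0 on mm10. The study's methods name 2 biological replicates a group after mechanical disruption, with no enrichment. Cells were filtered and gated as stated in the report, no doublet caller was run (the gate removes cells with Cd3, Cd79a or Siglech UMIs, 93 of the 325 gated without that exclusion), and counts were summed per library. The sums were tested with edgeR 4.0.16 (TMM, filterByExpr, quasi-likelihood, Benjamini-Hochberg, adjusted p under 0.05), checked on simulated counts, with DESeq2 1.42.0 as an alternative, in R 4.3.3 and Python 3.11.15. The study tested single cells by a Wilcoxon test, which was not done here, since cells of a library are not replicates. Each SE of a log2 change was derived as the absolute log2 change divided by the square root of edgeR's F statistic. P-values measure the spread between 2 libraries a group, and intervals and floors cover counting error only. Named genes were the gate genes, the 15 leading genes, called genes, the most abundant and well-known genes of each list, and Cdk8, Cdk19, Hspa8, Rbm3 and Gm42418, and a few further genes were chosen after their values were seen. The members and lists were chosen with earlier results of these data known. Alternatives on cells with both kinds of RNA, on cells with at least 3 further markers and on Cd79a and Cd3 cells were added after seeing the data.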

Additional observations from a re-analysis of the deposited data

Results flagged for a closer look

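The change of EV against control differed between migratory dendritic cells and all other filtered cells (edgeR interaction test, adjusted p under 0.05) for 21 genes of the lists or of the lowest p-values. Over all genes this test called 79 of 15122 (0.522%). Some of the 21 were taken for their low EV-against-control p-values in these same members, so their number is a description. The log2 change was higher in members for Spred2 (3.90), St3gal4 (1.64), Ptpre (2.31), Ifi27l2a (1.73), Ccl5 (0.91), Gm42418 (0.85), Npc2 (1.02), Fabp5 (1.05), Tspan3 (1.13) and AY036118 (0.98). It was lower in members for Bcl2 (-5.00), Samsn1 (-1.71), Setbp1 (-3.15), Cd83 (-1.67), Il4i1 (-1.27), Slamf1 (-1.75), Cd209d (-3.73), Pclaf (-4.06), Ccr2 (-2.35), Apoe (-1.43) and Mreg (-0.95). Of these, Bcl2, Cd209d, Setbp1, Spred2, Ccr2 and Pclaf had UMIs in at most 15 members each, and for Pclaf 30 of 33 UMIs were in control 1. Cd83, Samsn1, Il4i1 and Mreg had log2 changes of 0.20, -0.25, -0.11 and -0.25 in members and rose by 1.92, 1.54, 1.24 and 0.77 in the other cells, whose share of Cd79a cells was higher in EV. Within Cd79a cells Cd83 and Samsn1 rose as well, as given above, and the part of that share in the rises was not tested. Against Cd79a cells alone the difference for Ccl5 did not pass.

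Against Cd79a cells, the class II genes H2-Eb1 (0.93), H2-Ab1 (0.93), Cd74 (0.60) and H2-Aa (0.72) had a higher log2 change in members by the same test. These were 4 of 17 class II genes tested, beside 81 of 12969 genes (0.625%) called over all genes. For H2-Aa the difference passed neither against Cd3 cells nor against all other filtered cells. The median log2 change of the class II list was 0.66 in members and 0.14 in Cd79a cells.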

How the results depend on the processing

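The number of called genes, 5 by the main test, moved with the settings. DESeq2 called 16 genes (it gave an adjusted p for 3313 of 14755), no filter on low counts 119, a library size without stress and ribosomal genes 1, thinning to 2000 UMIs 0 of 1574 tested (153 at an unadjusted p under 0.05), and a gate of 5 UMIs 0 (559). Requiring no B, T or C1q UMIs left 2, members with Ccr7 gave 8 (0 shared with the 5), and no upper limits with 5% mitochondrial UMIs gave 2. Leaving out the low ribosomal cells gave 3, leaving out the low Malat1 cells 0 (490 at an unadjusted p under 0.05), and keeping cells with at least 3 of 8 further markers 9. A gate of 2 UMIs and a ribosomal limit of 60% kept all 5. Leaving out 1 library gave 8 to 297 calls (31 without control 1, 8 without control 2, 115 without EV 1 and 297 without EV 2), where the lone library is assumed to vary like the other group. Cells with both kinds of RNA gave 0 calls, with DESeq2 0, with the replicate block 0, without the filter 95, and 72 without control 1, 0 without control 2, 64 without EV 1 and 47 without EV 2. The settings on RNA content and further markers were chosen after seeing the data.

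With the replicate block 4 genes were called, of which 3 (Bcl2, Ffar2 and Cd209d) were among the 5. The other was Il1b. Deviations of control 1 and EV 1 from their group means correlated at 0.12 over genes. The labels do not say that a number marks a shared batch, and with 2 pairs the numbers were not taken to pair the libraries.

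The difference in share (-0.106 percentage points) became 0.0053 without upper limits and 0.0546 for cells with both kinds of RNA (of filtered cells with both kinds, 0.191% and 0.245% in the controls against 0.252% and 0.294% in EV, where the groups did not overlap, exact permutation p = 0.333), and ran from -0.37 to 0.16 with 1 library left out. The interaction against all other cells gave 79 calls, 49 against Cd3 cells and 46 with both kinds of RNA, and that against resident DC-like cells gave 6, or 14 without the filter. Of 26 alternatives, Bcl2 was not called in 10 (in 4 of these it gave no value, being filtered out), Cd209d in 13 (8 with no value), Ffar2 in 12 (2), Ifitm3 in 14 (2) and Ifi27l2a in 15 (2). None of the 20 genes followed through the alternatives changed sign in a called value, and the causes of these shifts were not tested. With this number of members and 2 libraries a group, a difference below the spread of the libraries was not detectable.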
